A study of Homo sapiens with 12 samples.

Results

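The comparison described here sets MDA-MB-231 cells given a control siRNA together with 5-aminolevulinic acid (5-ALA) against untreated cells, in 6 of the 12 arrays of the study. MDA-MB-231 is an established human breast cancer line of mesenchymal character. Cells of the first group received 15 nM Allstar control siRNA and 0.1 mM 5-ALA and are Samples 4, 8 and 12. Cells of the second received neither and are Samples 1, 5 and 9. The 6 other arrays hold 3 samples with 0.1 mM 5-ALA only and 3 with an siRNA against ferrochelatase (FECH) plus 5-ALA. All were grown as monolayers in RPMI medium with fetal calf serum and glutamine. The labels give neither the length of treatment nor a mock transfection of the untreated cells. No group received control siRNA without 5-ALA, so an effect that the siRNA has only in the presence of 5-ALA cannot be told apart from an effect of the siRNA itself. The sample numbers form 3 runs, 1 to 4, 5 to 8 and 9 to 12, each with 1 sample of every group, and differences were taken within runs. The labels do not say that the samples of a group are separate cultures, so a p-value here weighs a difference only against the scatter of these samples, which may be technical.

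5-ALA is the first dedicated intermediate of heme synthesis, made in mitochondria by ALAS1, and cells that are given it make protoporphyrin IX and heme without that step. Heme is broken down by heme oxygenase 1, encoded by HMOX1, a gene repressed by BACH1 until heme binds that repressor, and heme also lowers ALAS1. A control siRNA has no intended target, but it still enters the RNA-silencing complex, can repress transcripts that match its seed, and brings a transfection with it. The sequence of the control siRNA is not given in the sources used here.

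Array medians lay between 7.25 and 7.34 on the log2 scale over all 12 arrays. Log2 signals correlated across genes at 0.992 to 0.994 within the control siRNA group, at 0.985 to 0.994 within the untreated group and at 0.979 to 0.992 between them, where genes are not independent replicates. Sample 9, the untreated array of run 3, stood apart: 416 of 12151 genes tested lay over 0.5 log2 units from the average of Samples 1 and 5, 300 below it and 116 above it. The same count on the other 11 arrays was 10 to 115. Each result below that rests on the untreated group is therefore given with all arrays and, where this bears on it, without Sample 9. Of the markers of a mesenchymal breast cancer line, 8 of 9 exceeded a log2 signal of 7.29, the overall median of the probe sets, on all 12 arrays, and SPARC was above it on none. Of 14 luminal and epithelial markers, 7 exceeded that level on all 12 arrays, the keratins KRT8, KRT18 and KRT19 among them, and 4, ESR1, PGR, AGR2 and TFF3, were below it on every array. No detection values were used, so where a group mean is below 7.29 the gene may be at background there, and its fold only compares signals. Precision is limited throughout by having 3 arrays in a group.

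HMOX1, the heme-degrading enzyme, had the largest rise of all genes tested. Its log2 signals were 10.33, 10.12 and 10.55 in control siRNA plus 5-ALA cells of runs 1, 2 and 3, against 8.51, 8.77 and 8.76 in untreated cells. All 3 values of the first group lay above all 3 of the second. The difference was 1.65 ± 0.10 (SE, n = 3 per group) on the log2 scale, with a 95% interval of 1.43 to 1.87, which is 3.14-fold (limma, adjusted p = 9.3e-06). Without Sample 9 it was 1.61 (adjusted p = 1.5e-05). An exact permutation test of these 6 values, two-sided and without the pairing by run, gave p = 0.1. This is the smallest that an unpaired test of 3 against 3 values allows.

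ALAS1, the enzyme that sets the rate of heme synthesis by making 5-ALA, fell. It measured 8.89, 8.61 and 8.73 (log2) in control siRNA plus 5-ALA cells, against 9.34, 9.29 and 9.75 in untreated cells. The groups did not overlap, and the difference was widest in run 3, where the untreated array is Sample 9. The difference was -0.72 ± 0.10 (SE, n = 3 per group), or 1.64-fold lower (limma, adjusted p = 0.0010), and -0.59 without Sample 9 (adjusted p = 0.0014). FBXO30, an F-box protein of ubiquitin ligases, measured 10.33, 10.34 and 10.50 with control siRNA plus 5-ALA and 9.80, 10.01 and 9.75 without treatment. It rose 1.45-fold (log2 difference 0.53 ± 0.07, SE, limma adjusted p = 0.0010), again with no overlap of the groups.

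The enzymes of heme synthesis downstream of ALAS1 that are named here differed little. Of 7 tested genes of the pathway, 0 rose and 2 fell, ALAS1 among them, and 0 rose and 1 fell without Sample 9. The share past the test over all genes was 10.7%, with 5.83% higher and 4.84% lower. The median log2 difference of the list was 0.01. ALAD, CPOX, UROD and FECH lay between -0.02 and 0.06 on the log2 scale, and none of these passed. FECH, which inserts iron into protoporphyrin IX and is the gene that the study silences in another group, measured 8.60, 8.54 and 8.51 with control siRNA plus 5-ALA and 8.51, 8.57 and 8.40 without treatment. The groups overlapped, with a log2 difference of 0.06 ± 0.06 (SE, limma adjusted p = 0.63).

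Among 11 tested genes of heme breakdown and regulation, 2 rose, HMOX1 and FBXO30, and 2 fell, PGRMC1 and HMOX2, the same numbers as without Sample 9. PGRMC1, a heme-binding membrane protein that associates with ferrochelatase, measured 11.17, 11.29 and 11.26 with control siRNA plus 5-ALA and 11.73, 11.67 and 11.75 without treatment. Its log2 difference was -0.47 ± 0.06 (SE, limma adjusted p = 0.00063). HMOX2, the constitutive heme oxygenase, differed by -0.26 ± 0.07 (SE, limma adjusted p = 0.039), with an adjusted p of 0.12 without Sample 9. BACH1, the repressor of HMOX1, differed by -0.16 (adjusted p = 0.19), and by -0.25 without Sample 9 (adjusted p = 0.024).

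Of the heme and porphyrin transporters 5.26% passed the test, and of the iron genes 15.0%, beside 10.7% over all genes. Of 19 tested transporters only the heme exporter FLVCR1 passed, with a log2 difference of -0.47 ± 0.11 (SE, limma adjusted p = 0.019). Its adjusted p was 0.060 without Sample 9, where SLC6A6 passed instead, with a log2 difference of 0.23 (limma adjusted p = 0.041). ABCG2, a porphyrin exporter, measured 7.63, 7.17 and 7.53 with control siRNA plus 5-ALA and 7.66, 7.70 and 7.22 without treatment, with overlapping groups (log2 difference -0.08, limma adjusted p = 0.74). Of 20 tested iron genes, the metal importer SLC39A8 (0.27) and the ferric reductase CYBRD1 (0.19) rose, and IREB2 (-0.24), which encodes iron regulatory protein IRP2, fell. The same 2 and 1 passed by count without Sample 9. TFRC, the transferrin receptor, differed by 0.12 (limma adjusted p = 0.23).

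**Figure D1:**
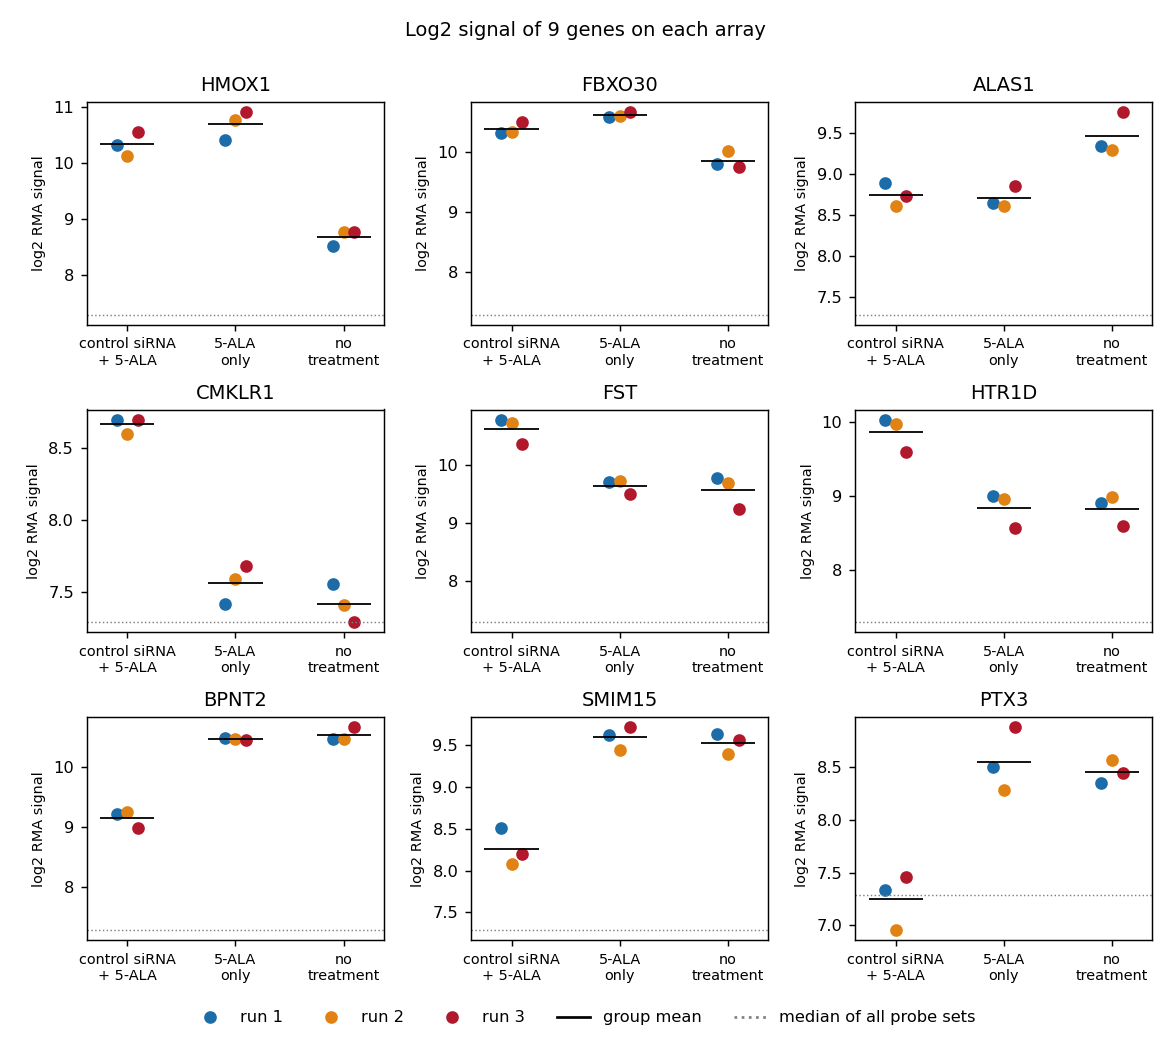
Log2 RMA signal (vertical axis) of 9 genes on each array, with control siRNA + 5-ALA at the left, 5-ALA only in the middle and no treatment at the right. Points are arrays coloured by run, bars are group means and the dotted line is the median of all probe sets, 7.29. HMOX1 and FBXO30 are high and ALAS1 is low in both groups with 5-ALA, while in the other 6 genes the 5-ALA only points sit near the untreated ones.

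Over all genes, 708 were higher and 588 lower with control siRNA plus 5-ALA than with no treatment (limma, 12151 genes tested). Most differences were small: the median size among the 1296 genes past the test was 0.29 on the log2 scale. Only 45 of those genes were over 1.5-fold higher and 41 over 1.5-fold lower, and 6 were over 2-fold higher and 4 over 2-fold lower. The 3 within-run differences had 1 sign in 1294 of the 1296 genes, where 45.6% of all genes tested had 1 sign in all runs. The groups did not overlap in 1130 of them, against 21.1% of all genes tested. These genes were picked by a test on the same differences, so neither count is separate evidence that the runs are alike. Without Sample 9, 982 genes passed (8.08%), 489 higher (4.02%) and 493 lower (4.06%). Of the genes past the test with all arrays, 801 also passed without Sample 9, all with the same sign, while 495 passed only with it and 181 only without it. Centring each array on its median gave 384 higher and 552 lower. The balance also moved when 1 array was left out, with 295 higher and 413 lower without control siRNA plus 5-ALA replicate 1 and 496 higher and 311 lower without replicate 2. Without the run as a block, 291 were higher and 270 lower.

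After HMOX1, the largest rises were those of CMKLR1, FST and HTR1D. CMKLR1, the receptor of the chemoattractant chemerin, measured 8.70, 8.60 and 8.70 (log2) with control siRNA plus 5-ALA, against 7.56, 7.41 and 7.29 with no treatment. It was 2.37-fold higher (log2 difference 1.25 ± 0.09, SE, limma adjusted p = 2.7e-05), with no overlap. FST, which encodes the activin-binding protein follistatin, measured 10.78, 10.72 and 10.35 with control siRNA plus 5-ALA, against 9.77, 9.68 and 9.24 with no treatment. Both groups were lowest in run 3, and the within-run difference was nearly the same in all runs, 1.05 ± 0.07 on the log2 scale (2.07-fold, SE, limma adjusted p = 9.3e-06). HTR1D, a serotonin receptor, measured 10.03, 9.97 and 9.59 with control siRNA plus 5-ALA and 8.90, 8.98 and 8.59 with no treatment. It too was lowest in run 3 in both groups and rose 2.06-fold (1.04 ± 0.06, SE, limma adjusted p = 9.3e-06).

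LAPTM5, a lysosomal membrane protein best known from blood cells, measured 11.11, 10.88 and 11.27 with control siRNA plus 5-ALA, against 10.16, 10.13 and 10.40 with no treatment. It was 1.81-fold higher (log2 difference 0.86 ± 0.06, SE, limma adjusted p = 1.1e-05), with no overlap of the groups. ITGB8, the integrin chain that activates latent TGF-beta, measured 9.88, 10.06 and 9.76 with control siRNA plus 5-ALA and 8.96, 9.19 and 8.44 with no treatment. It was 2.05-fold higher (1.03 ± 0.10, SE, limma adjusted p = 0.00017), and 0.88 on the log2 scale without Sample 9. SLC46A3, a lysosomal transporter, measured 9.59, 9.30 and 9.23 with control siRNA plus 5-ALA and 8.74, 8.34 and 8.37 with no treatment, without overlap (0.89, limma adjusted p = 4.2e-05).

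Other large rises drew part of their size from Sample 9 or lay near the level of 7.29. ADAMTS15, a secreted metalloproteinase, measured 10.31, 10.19 and 10.20 with control siRNA plus 5-ALA and 9.75, 9.90 and 8.40 with no treatment. The last of these, Sample 9, was by far the lowest, and the log2 difference of 0.89 ± 0.22 (SE, limma adjusted p = 0.027) was 0.48 without it (adjusted p = 0.0057). RGS2, which shortens signals from G-protein-coupled receptors, likewise had 0.86 with all arrays and 0.59 without Sample 9. KLRC3, whose transcript is close in sequence to other KLRC genes and so may share their signal, differed by 0.93 ± 0.09 (SE, limma adjusted p = 0.00014). ACTBL2, an actin-like gene, differed by 0.97, and by 0.75 without Sample 9, with an untreated mean of 6.99 that is below 7.29.

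The largest falls past 2-fold were those of BPNT2, SMIM15, PTX3 and GNPNAT1. BPNT2, a Golgi phosphatase that clears the by-product of sulfation, measured 9.22, 9.26 and 8.99 (log2) with control siRNA plus 5-ALA, against 10.48, 10.47 and 10.67 with no treatment. It was 2.61-fold lower (log2 difference -1.38 ± 0.09, SE, limma adjusted p = 9.4e-06), the largest fall of all genes past the test, with no overlap. GNPNAT1, an enzyme of UDP-N-acetylglucosamine synthesis, measured 8.99, 8.67 and 8.82 with control siRNA plus 5-ALA and 10.00, 9.88 and 10.05 with no treatment. It was 2.22-fold lower (-1.15 ± 0.07, SE, limma adjusted p = 9.3e-06). MINPP1, an inositol polyphosphate phosphatase, measured 10.01, 9.97 and 9.66 with control siRNA plus 5-ALA and 10.86, 10.79 and 10.95 with no treatment. It was 1.98-fold lower (-0.99 ± 0.08, SE, limma adjusted p = 5.4e-05), also without overlap.

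SMIM15, a small membrane protein, measured 8.51, 8.07 and 8.19 with control siRNA plus 5-ALA and 9.63, 9.39 and 9.57 with no treatment, 2.41-fold lower (limma adjusted p = 9.3e-06). CD274, which encodes the immune checkpoint ligand PD-L1, measured 8.44, 7.95 and 8.23 with control siRNA plus 5-ALA and 9.16, 8.85 and 9.05 with no treatment. It fell in every run and was 1.76-fold lower (-0.81 ± 0.10, SE, limma adjusted p = 0.00078). PTX3, a secreted pattern-recognition protein, measured 7.33, 6.96 and 7.46 with control siRNA plus 5-ALA and 8.35, 8.57 and 8.44 with no treatment. Its treated mean of 7.25 is below 7.29, so the ratio of 2.30 (limma adjusted p = 0.00012) is one of signals. The other 6 of the 12 largest falls, from NIPAL1 (-0.84) and SGMS2 (-0.82), a sphingomyelin synthase, through GOLT1B, HLTF and CPA4 to HEATR1 (-0.79), were 1.73 to 1.79-fold lower. None of the 12 falls lost its call without Sample 9.

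**Figure D2:**
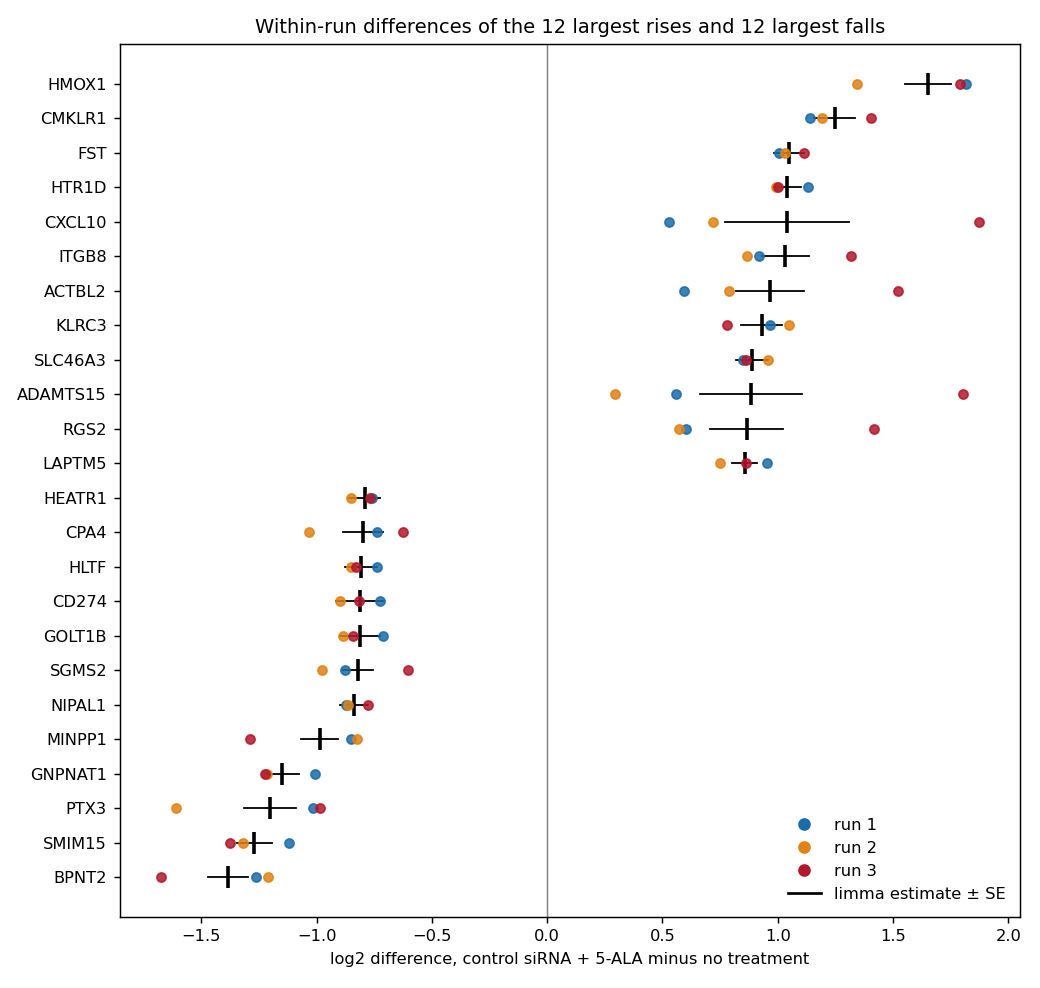
Within-run log2 differences, control siRNA + 5-ALA minus no treatment (horizontal axis), for the 12 largest rises and 12 largest falls past the test. Points are the 3 runs, and the bar and line are the limma estimate ± SE. The runs lie close together in most genes, while CXCL10, ACTBL2, ADAMTS15 and RGS2 have a run 3 difference, from Sample 9, far above the others.

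The 5-ALA only arrays set these values beside those of 5-ALA without the siRNA. The full difference is the sum of 5-ALA only minus no treatment and of control siRNA plus 5-ALA minus 5-ALA only, and the comparisons share arrays. Past the test, 3 of 12151 genes (0.0247%) differed between 5-ALA only and no treatment, namely HMOX1, FBXO30 and ALAS1, and the same number without Sample 9. Between control siRNA plus 5-ALA and 5-ALA only, 1652 genes (13.6%) passed, 737 higher (6.07%) and 915 lower (7.53%). HMOX1 measured 10.40, 10.76 and 10.91 with 5-ALA only, 2.01 above no treatment (limma adjusted p = 3.8e-06). With control siRNA plus 5-ALA it was lower than with 5-ALA only, by a log2 difference of -0.36 ± 0.10 (SE, limma adjusted p = 0.035). ALAS1 measured 8.65, 8.61 and 8.86 with 5-ALA only, -0.76 from no treatment (adjusted p = 0.026), and control siRNA plus 5-ALA differed from that by 0.04 ± 0.10 (SE, adjusted p = 0.83). For FBXO30 the corresponding differences were 0.76 (adjusted p = 0.0017) and -0.23 (adjusted p = 0.054).

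The other large changes had another make-up. Among the 12 largest falls, 5-ALA only minus no treatment lay between -0.07 (BPNT2) and 0.11 (CPA4), and none passed. Control siRNA plus 5-ALA minus 5-ALA only was -1.32 for BPNT2, -1.34 for SMIM15, -1.30 for PTX3 and -1.17 for GNPNAT1, each past the test. CMKLR1 differed by 0.15 between 5-ALA only and no treatment and by 1.10 between control siRNA plus 5-ALA and 5-ALA only. FST differed by 0.08 and 0.97 in the same order, HTR1D by 0.02 and 1.03, and LAPTM5 by 0.01 and 0.85. ADAMTS15 had no such division with all arrays: its differences were 0.47 (adjusted p = 0.79) and 0.42 (limma adjusted p = 0.24), and neither passed. The first of these leaned on Sample 9. ADAMTS15 measured 9.93, 9.97 and 9.54 with 5-ALA only, beside 9.75, 9.90 and 8.40 (Sample 9) with no treatment.

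**Figure D3:**
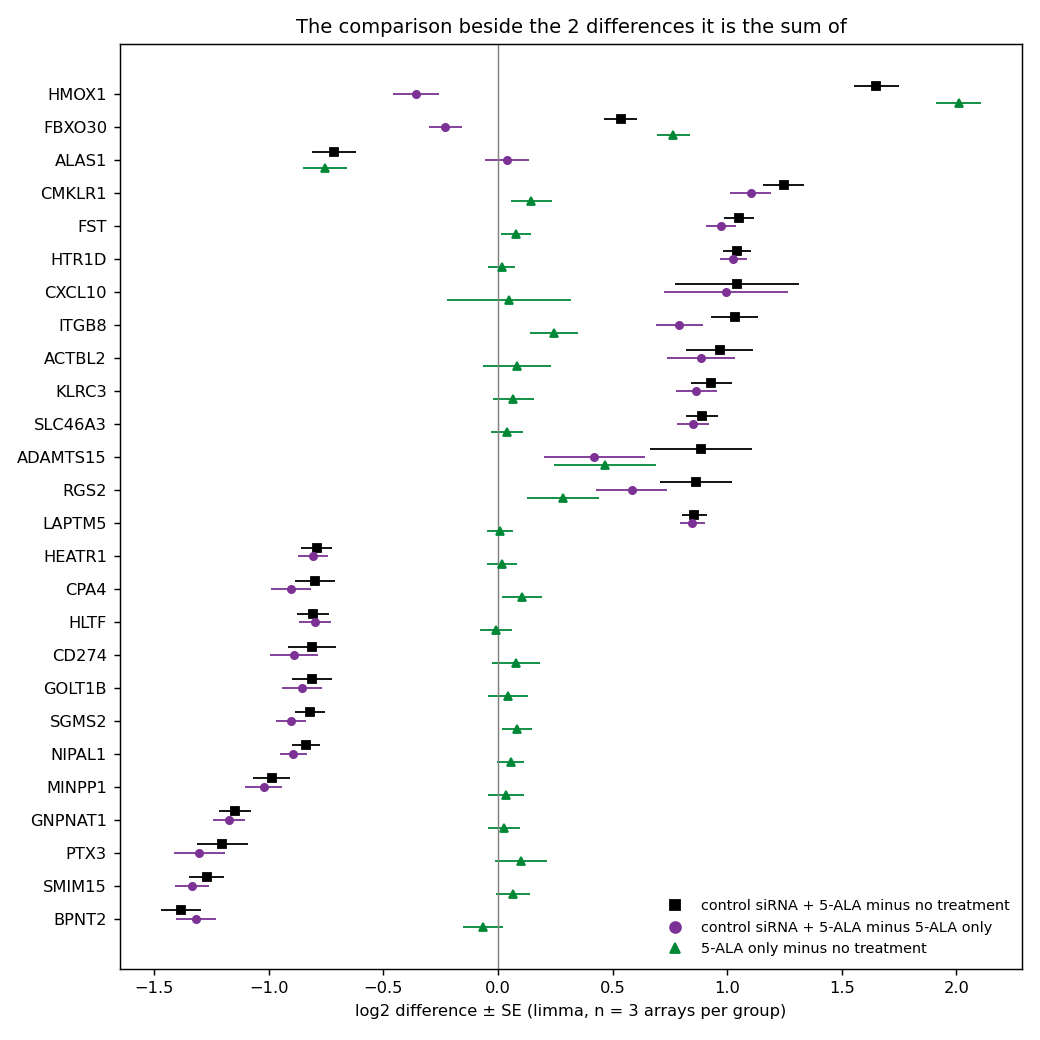
Log2 difference ± SE (limma, horizontal axis) for 26 genes: control siRNA + 5-ALA minus no treatment (black squares), control siRNA + 5-ALA minus 5-ALA only (purple circles) and 5-ALA only minus no treatment (green triangles). The black value is the sum of the other two; the green triangle lies far from 0 for HMOX1, FBXO30 and ALAS1, and near 0 for most other genes.

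With all arrays, lysosome and autophagy genes held the most rises of the 26 pathway lists, an order that did not hold without Sample 9. Of 33 tested, 10 rose and 1 fell, where 5.83% of all genes rose and 4.84% fell, and the median log2 difference was 0.11 beside 0.02 over all genes. Without Sample 9, 4 rose and 1 fell, with a median of 0.11, while the interferon and epithelial to mesenchymal lists had 5 rises each. NEU1, the lysosomal sialidase, measured 11.43, 11.34 and 11.41 with control siRNA plus 5-ALA and 10.89, 10.93 and 10.88 with no treatment. It was 1.40-fold higher (0.49 ± 0.06, SE, limma adjusted p = 0.00057), with narrow groups that did not overlap. GABARAPL1, a protein of autophagosome membranes, measured 10.88, 11.09 and 11.03 with control siRNA plus 5-ALA and 10.58, 10.61 and 10.47 with no treatment (0.45, limma adjusted p = 0.0011). The 1 fall was ATP6V1A, a catalytic subunit of the proton pump that acidifies lysosomes, which measured 9.21, 8.98 and 8.89 with control siRNA plus 5-ALA and 9.80, 9.59 and 9.51 with no treatment. It was 1.52-fold lower (limma adjusted p = 0.00055). The other rises, named after their values were seen, included MITF (0.34) and CTSL (0.17), the second of which did not pass without Sample 9.

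The 250 bases before the start of NEU1 are shown because its promoter holds the CACGTG E-box, the core that lysosomal regulators of the MITF and TFEB family bind. They are RefSeq sequence on GRCh38.p14, chr6:31862822-31863071, minus strand, written 5′ to 3′ with the E-box, 126 bases before the start, in capitals.
NEU1: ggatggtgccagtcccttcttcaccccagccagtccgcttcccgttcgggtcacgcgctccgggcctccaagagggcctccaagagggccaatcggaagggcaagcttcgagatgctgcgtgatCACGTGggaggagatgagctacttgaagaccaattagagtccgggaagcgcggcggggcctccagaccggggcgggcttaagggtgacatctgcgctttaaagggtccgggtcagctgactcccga
Searched on both strands of the same window, CACGTG occurred in 9.15% of the 9487 tested genes with a promoter sequence. It occurred in 9.74% of the 575 such genes that rose and in 10.97% of the 465 that fell. Of the 8 risen lysosome genes with a promoter sequence, 1 held it, NEU1 itself. A match is a description of these letters and not a site shown to be used.

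Interferon and RNA-sensing genes showed 7 rises and 1 fall among 34 tested, with a median of 0.07. Without Sample 9 there were 5 rises and 0 falls, with a median of 0.02. Over all genes 5.83% rose and 4.84% fell, and without Sample 9 4.02% rose and 4.06% fell. CXCL10, an interferon-induced chemokine, measured 7.56, 7.56 and 7.40 with control siRNA plus 5-ALA and 7.04, 6.84 and 5.52 with no treatment. Sample 9 was far the lowest of these, and the untreated values were all below 7.29. The log2 difference was 1.04 ± 0.27 (SE, limma adjusted p = 0.032), a ratio of signals of 2.06, and 0.55, or 1.47-fold, without Sample 9 (adjusted p = 0.014). CXCL11, its neighbour on chromosome 4, measured 7.51, 7.42 and 7.58 with control siRNA plus 5-ALA and 7.09, 7.08 and 6.08 with no treatment. Its difference was 0.75 (limma adjusted p = 0.030), and 0.41 without Sample 9 (adjusted p = 0.015). TLR3, a sensor of double-stranded RNA, differed by 0.41 (adjusted p = 0.024), and its adjusted p was 0.070 without Sample 9. SAMD9 (0.39), IFI35 (0.40), IFI27 (0.33) and OAS2 (0.26) also rose, and IFIT5 (-0.21) fell; these were named after their values were seen, and OAS2 and IFIT5 did not pass without Sample 9.

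Promoters of both chemokines are shown because both hold the letters of an element through which NF-kB acts. That of CXCL10 also holds the letters of an element through which interferon-regulated factors act. The 250 bases before each start are RefSeq sequence on GRCh38.p14, minus strand, from chr4:76023498-76023747 for CXCL10 and chr4:76036071-76036320 for CXCL11. Capitals mark the NF-kB pattern, GGGA and TTCC with any 2 bases between them, and the interferon response core, GAAA and GAAA with any 2 bases between them.
CXCL10: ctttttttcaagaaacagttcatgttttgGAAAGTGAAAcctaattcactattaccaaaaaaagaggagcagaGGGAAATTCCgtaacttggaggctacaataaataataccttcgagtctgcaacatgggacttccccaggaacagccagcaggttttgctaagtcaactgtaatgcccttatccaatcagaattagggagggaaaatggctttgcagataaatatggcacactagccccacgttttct
CXCL11: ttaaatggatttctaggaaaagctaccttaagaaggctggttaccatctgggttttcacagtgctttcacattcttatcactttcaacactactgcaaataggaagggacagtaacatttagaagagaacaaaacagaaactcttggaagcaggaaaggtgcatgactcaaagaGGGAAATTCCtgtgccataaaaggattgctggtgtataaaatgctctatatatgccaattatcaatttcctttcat
The NF-kB letters begin 177 bases before the CXCL10 start and 76 before the CXCL11 start, and the interferon core 221 before the CXCL10 start. On both strands, the NF-kB pattern occurred in 1.41% and the interferon core in 2.20% of tested genes with a promoter sequence, and in 1.91% and 2.78% of those that rose. Among those that fell, the shares were 1.08% and 2.37% in the same order.

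NF-kB targets, cytokines and chemokines ran the other way by count. Of 28 tested, 1 rose and 5 fell, with a median of -0.08, which is 21.4% of the list beside 10.7% over all genes. Without Sample 9, 0 rose and 9 fell, with a median of -0.20, where 4.02% of all genes rose and 4.06% fell. Besides PTX3, the falls were CSF2 (-0.78), TNFAIP2 (-0.43), NFKBIA (-0.42) and ICAM1 (-0.26), and the rise was PTGS2 (0.27), the inducible prostaglandin synthase, which did not pass without Sample 9 (adjusted p = 0.10). CSF2, the granulocyte-macrophage growth factor, measured 8.82, 8.66 and 8.94 with control siRNA plus 5-ALA and 9.23, 9.42 and 10.11 with no treatment. It was 1.72-fold lower (limma adjusted p = 0.0060), with the highest untreated value on Sample 9. NFKBIA encodes the inhibitor that holds NF-kB in the cytoplasm. CXCL8 (-0.44), LIF (-0.41) and NFKB1 (-0.33) were among those that passed only without Sample 9, and were named after their values were seen.

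Targets of NRF2 and BACH1 other than HMOX1 showed 5 rises and 0 falls among 29 tested, with a median of 0.07. Without Sample 9 the count was 3 rises and 2 falls, TXNRD1 and SLC7A11. With all arrays 17.2% of the list passed, beside 10.7% over all genes and 8.08% of all genes without Sample 9. The aldo-keto reductase AKR1C3 measured 9.11, 8.90 and 8.89 with control siRNA plus 5-ALA and 8.35, 8.27 and 8.38 with no treatment, 1.55-fold higher (limma adjusted p = 0.00055). AKR1C genes are close in sequence, so part of this signal may come from AKR1C2, which differed by 0.48 (adjusted p = 0.044) and, without Sample 9, by 0.38 (adjusted p = 0.13). AKR1C1, of the same family and list, did not move (-0.0035, limma adjusted p = 0.98). PIR, an iron-binding nuclear protein, measured 8.91, 8.82 and 8.81 with control siRNA plus 5-ALA and 8.45, 8.36 and 8.31 with no treatment (0.47, limma adjusted p = 0.00055). Differences between 5-ALA only and no treatment were 0.07 for AKR1C3 and below 0.01 in size for PIR, and neither passed. The ferroptosis and glutathione list, which shares genes with this one, had 4 rises and 1 fall among 24 (20.8%), and 2 of each without Sample 9. GPX3 (0.34), a glutathione peroxidase, rose, and ACSL4 (-0.38), which activates polyunsaturated fatty acids, fell.

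Stress-response lists held few calls with all arrays, beside 10.7% over all genes. The shares were 6.06% for the ATF4 and integrated stress response, 6.25% for heat shock and 8.70% for the unfolded protein response. Of 33 tested genes of the ATF4 and integrated stress response, 0 rose and 2 fell. These were the tRNA exporter XPOT (-0.41) and PHGDH (-0.36), the first enzyme of serine synthesis. Without Sample 9, 0 rose and 8 fell, with a median of -0.20, where 4.06% of all genes fell. ASNS (-0.47), PSAT1 (-0.44) and PSPH (-0.38), named after their values were seen, were among those 8. The median of the list was -0.12 in run 1, -0.19 in run 2 and 0.26 in run 3, where the untreated array is Sample 9. Heat shock chaperones had 0 rises and 1 fall among 16, DNAJB1 (-0.36), an HSP70 co-chaperone. The unfolded protein response had 1 rise and 1 fall among 23, and EDEM1, which directs misfolded glycoproteins to degradation, was the larger (-0.48, limma adjusted p = 0.0012). Of 11 metallothionein and zinc genes, 0 passed in the limma fit, and 0 had an unadjusted p below 0.05. MT1A, a zinc-binding metallothionein, measured 10.48, 9.92 and 10.57 with control siRNA plus 5-ALA and 10.31, 11.18 and 10.64 with no treatment, so the runs did not share a direction (-0.39, adjusted p = 0.25). Without Sample 9 the heat shock list had 0 rises and 1 fall, the unfolded protein list 0 rises and 1 fall, and the metallothionein list 0 of either (limma, 2 members with an unadjusted p below 0.05).

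Genes of small RNA silencing showed 3 rises and 0 falls among 15 tested, with a median of 0.03. DICER1, the nuclease that cuts small RNAs to size, measured 11.36, 11.21 and 11.39 with control siRNA plus 5-ALA and 10.96, 10.88 and 11.15 with no treatment. It was 1.25-fold higher (0.32 ± 0.05, SE, limma adjusted p = 0.0041), and higher in every run. AGO2, the slicer of the silencing complex, differed by 0.20, and TNRC6A, its partner in repression, by 0.19, each with an adjusted p of 0.037, and each missed the test without Sample 9. Of 16 genes of endocytosis and RNA uptake, 12.5% passed, SIDT2 (0.32), a lysosomal RNA transporter, and SDC4 (0.29), a heparan sulfate proteoglycan. Both rose and 0 genes of that list fell. Without Sample 9 it had 3 rises and 0 falls.

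Genes of epithelial to mesenchymal transition moved in both directions, 7 up and 4 down among 26, with a median of 0.06. Without Sample 9, 5 were up and 3 down. Of the list 42.3% passed with all arrays, beside 10.7% over all genes and 8.08% of all genes without Sample 9. Beside FST, the matrix-cleaving enzymes MMP9 and MMP1 moved in opposite directions. MMP9 measured 8.45, 8.27 and 8.83 with control siRNA plus 5-ALA and 7.86, 7.77 and 8.20 with no treatment, 1.49-fold higher (limma adjusted p = 0.00063). MMP1 measured 10.77, 10.62 and 11.09 with control siRNA plus 5-ALA and 11.48, 11.35 and 11.40 with no treatment, a log2 difference of -0.58 (adjusted p = 0.0052). ITGB3 (0.41), ITGA5 (0.33) and TGFB1 (0.30) rose and CLDN1 (-0.46) and SNAI2 (-0.27) fell, named after their values were seen. Of the markers of the line itself, MSN (-0.37) and FOSL1 (-0.30) fell among 8 tested.

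Markers of other cell types were read beside these groups. Of 10 fibroblast markers, 3 were above 7.29 on all 12 arrays and 5 on none, DCN, PDGFRA, THY1, FAP and POSTN. Their summed linear signal was 2439.8 to 2795.8 with control siRNA plus 5-ALA and 1999.0 to 2207.4 with no treatment. LUM, which encodes the matrix protein lumican, measured 10.00, 9.89 and 9.39 with control siRNA plus 5-ALA and 9.38, 9.31 and 8.77 with no treatment (0.61, limma adjusted p = 0.0011), and PDGFRB differed by 0.36. Luminal markers summed to 10000.3 to 10184.7 with control siRNA plus 5-ALA and 10452 to 11777 with no treatment, with 7 of 14 above the level on all arrays and 4 on none. CDH1 rose (0.37, with an untreated mean of 7.27, below 7.29) and the keratins KRT19 (-0.34) and KRT8 (-0.25) fell. Of these only KRT19 passed without Sample 9. Blood, immune and endothelial markers summed to 2961 to 3037 with control siRNA plus 5-ALA and 2738 to 2808 with no treatment, with 3 of 12 above the level on all arrays, CD14 among them, and 6 below it on all arrays, PTPRC, CD3E and VWF among them. The part of other cells in any result was not tested.

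Metabolic and growth lists gave small counts on both sides. Glycolysis and hypoxia genes had 2 rises and 5 falls among 37, with a median of -0.10. SLC2A3, a glucose transporter, measured 10.93, 10.77 and 10.76 with control siRNA plus 5-ALA and 10.15, 10.33 and 10.54 with no treatment (0.48, limma adjusted p = 0.019). PDK1, which restrains pyruvate entry into mitochondria, differed by -0.53, and the hexokinase HK2 by -0.45. Cholesterol synthesis had 2 rises and 2 falls among 24, with EBP at 0.31 and DHCR7 at 0.21, while HMGCS1, the synthase early in the pathway, was at -0.53 (adjusted p = 0.020, and 0.053 without Sample 9). Cholesterol export and lysosomal lipid handling had 2 rises and 1 fall among 15: MYLIP (0.34), LPCAT3 (0.23) and PLIN2 (-0.31). Fatty acid synthesis had 1 rise, ME1 (0.18), and 1 fall, ELOVL6 (-0.30), among 14, and ME1 did not pass without Sample 9. Without Sample 9 the counts of rises and falls were 2 and 3 for glycolysis and hypoxia, 2 and 1 for cholesterol synthesis, 2 and 1 for cholesterol export, and 0 and 1 for fatty acid synthesis.

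Among 19 p53 targets, MDM2, the ubiquitin ligase that restrains p53, measured 9.78, 9.65 and 9.81 with control siRNA plus 5-ALA and 10.23, 10.18 and 10.29 with no treatment. It was 1.40-fold lower (limma adjusted p = 0.00031), and POLH also fell (-0.36). CDKN1A, the cell-cycle inhibitor, rose by 0.38 (limma adjusted p = 0.032), against 0.21 without Sample 9. TP53INP1, named after its value was seen, rose by 0.33 (adjusted p = 0.023), with an adjusted p of 0.064 without Sample 9. The p53 list thus had 2 rises and 2 falls with all arrays, 21.1% of its members beside 10.7% over all genes. Of mitosis genes 9.09% passed, of DNA replication genes 4.76%, of respiratory chain genes 6.06% and of immediate early genes 15.6%. Of 33 mitosis genes 2 rose, CDC25B (0.37) and CENPA (0.19), and 1 fell, CCNB1 (-0.35). Of 42 DNA replication genes 1 rose, CCNE1 (0.34), and 1 fell, MCM6 (-0.20). The respiratory chain had 1 rise, COX8A (0.21), and 1 fall, CYCS (-0.31), among 33. Immediate early genes and targets of ERK had 2 rises, NR4A3 (0.70, with an untreated mean below 7.29) and FOSB (0.43), and 3 falls among 32, with DUSP5 (-0.31) the largest. FOSB (adjusted p = 0.12) and DUSP5 (adjusted p = 0.071) did not pass without Sample 9, nor did CENPA, COX8A and CYCS. Without Sample 9 the counts of rises and falls were 1 and 3 for p53 targets, 1 and 1 for mitosis, 1 and 1 for DNA replication, 0 and 0 for the respiratory chain (limma, 4 members with an unadjusted p below 0.05), and 4 and 5 for the immediate early list.

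**Figure D4:**
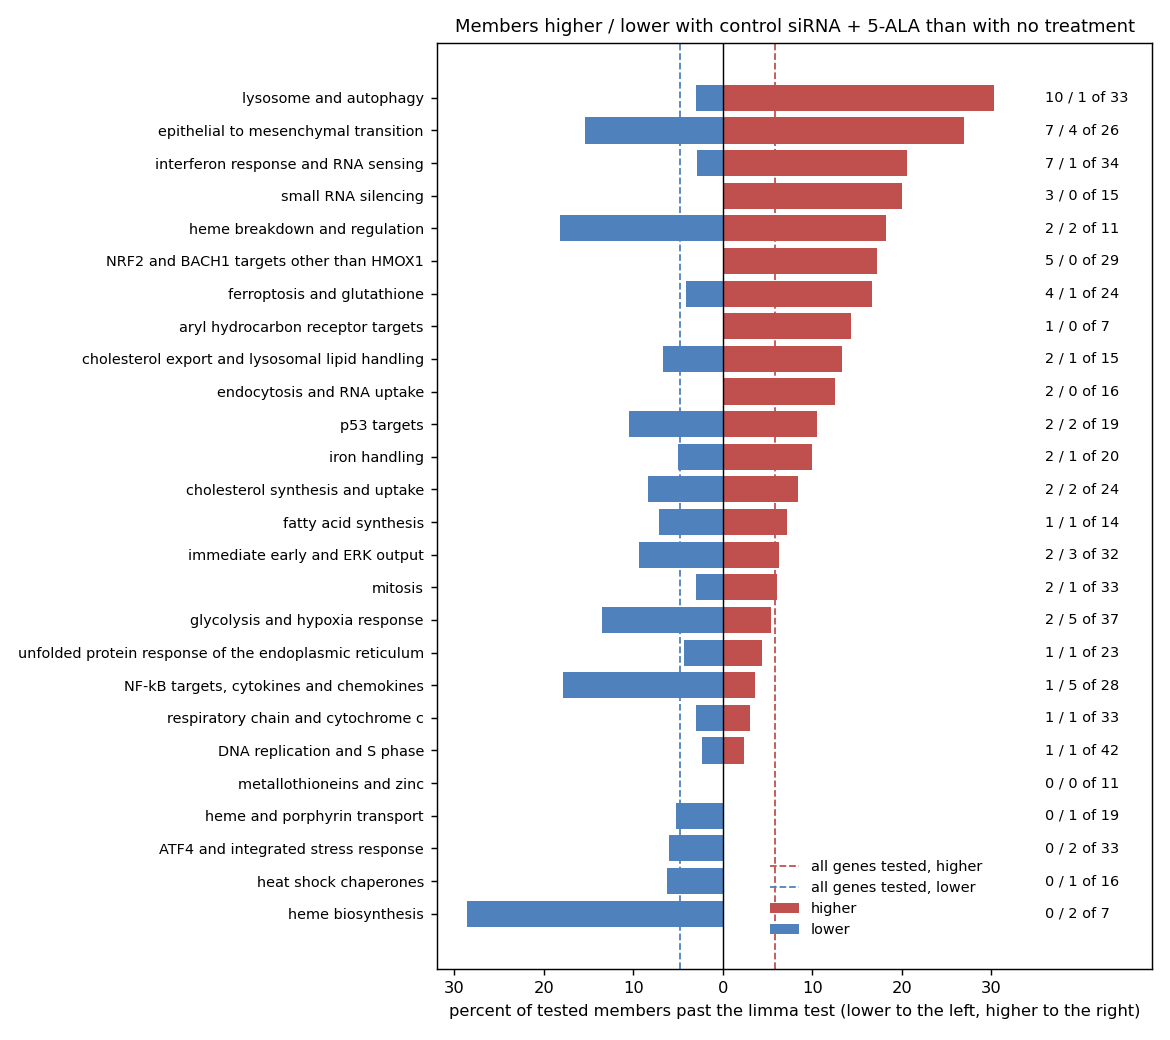
Percent of tested members of each of 26 gene lists that were past the limma test, higher to the right and lower to the left, control siRNA + 5-ALA minus no treatment, with counts at the right. Dashed lines are the shares over all genes tested, 5.83% higher and 4.84% lower. Lysosome and autophagy genes have the longest bar to the right, 10 of 33.

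In some genes the difference with all arrays rested on Sample 9. The 5 genes in which it lay farthest from the other untreated arrays were CYP1A1, SLC16A6, CHAC1, CYP1B1 and LACC1. CYP1A1, a cytochrome P450 induced through the aryl hydrocarbon receptor, measured 10.56, 10.20 and 10.15 with control siRNA plus 5-ALA and 10.40, 10.12 and 6.79 with no treatment. Its log2 difference of 1.20 (limma adjusted p = 0.21) was 0.12 without Sample 9 (adjusted p = 0.44). CYP1B1, a related enzyme, measured 12.86, 12.80 and 12.80 with control siRNA plus 5-ALA and 12.77, 12.68 and 10.70 with no treatment, and differed by 0.77, or 0.11 without Sample 9. CHAC1, which degrades glutathione, measured 10.28, 10.22 and 10.33 with control siRNA plus 5-ALA and 10.46, 10.43 and 8.31 with no treatment. Its difference was 0.54 with all arrays and -0.21 without Sample 9, and neither passed. The aryl hydrocarbon receptor list, whose median was 0.25 with all arrays and 0.11 without Sample 9, had 1 member past the test in both, ARNT (0.25, limma adjusted p = 0.0098).

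Other genes passed only once Sample 9 was left out. EGR1, an immediate early transcription factor, measured 9.72, 9.82 and 9.38 with control siRNA plus 5-ALA and 10.46, 10.62 and 8.90 with no treatment. Runs 1 and 2 were lower with control siRNA plus 5-ALA and run 3 was higher, so the log2 difference was -0.35 with all arrays (limma adjusted p = 0.51) and -0.86 without Sample 9 (adjusted p = 0.0017). GADD45A, induced by DNA damage and stress, measured 9.76, 9.19 and 9.48 with control siRNA plus 5-ALA and 10.19, 9.91 and 8.64 with no treatment. It gave -0.10 and -0.56 in the same way, the second past the test (adjusted p = 0.0025). ODC1, the first enzyme of polyamine synthesis, went the other way, with 0.65 (adjusted p = 0.045) with all arrays and 0.40 (adjusted p = 0.13) without Sample 9.

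**Figure D5:**
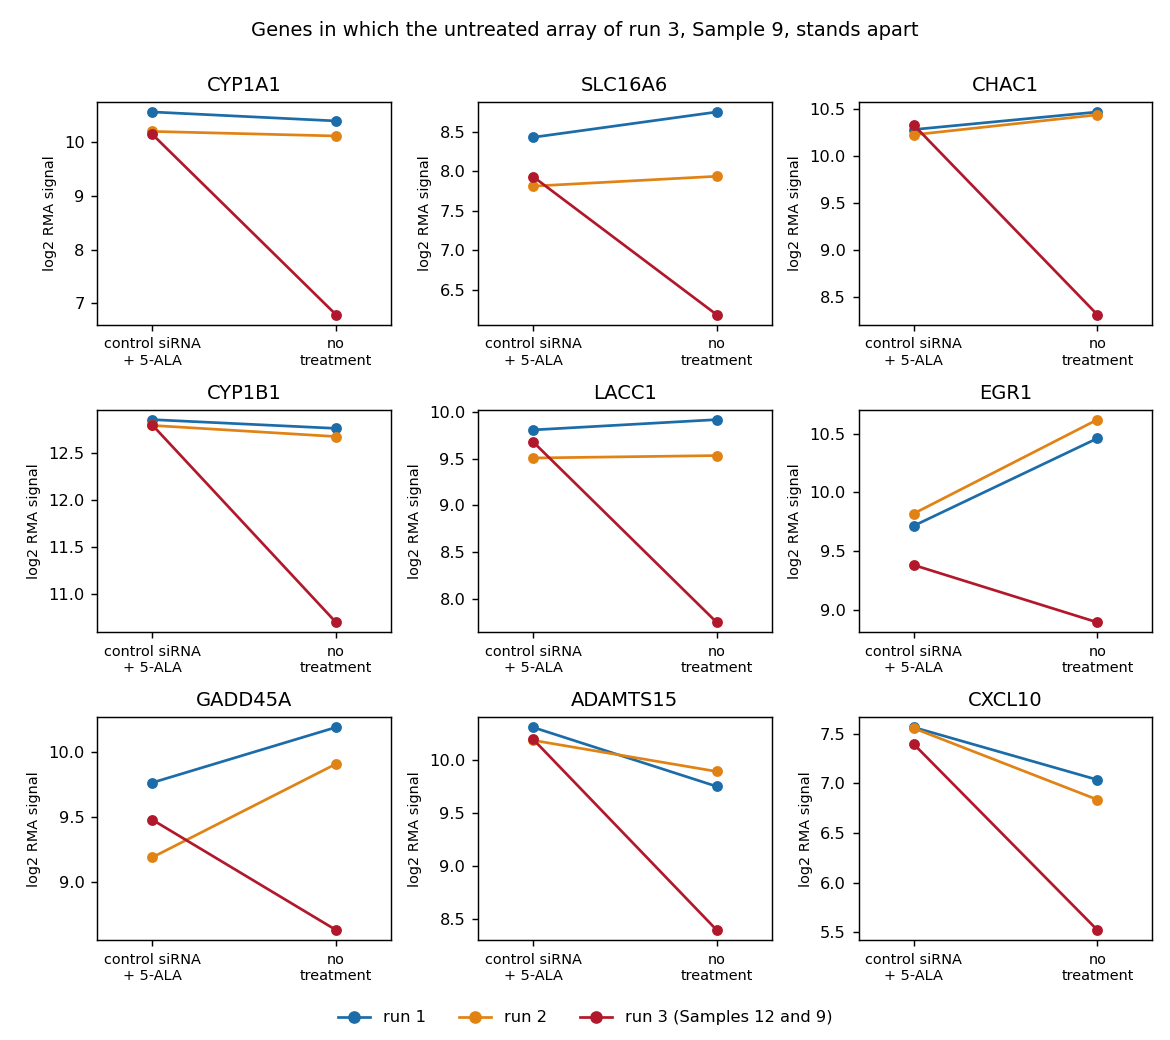
Log2 RMA signal (vertical axis) with control siRNA + 5-ALA at the left and no treatment at the right for 9 genes, with a line for each run. The untreated point of run 3, Sample 9, is far below the untreated points of runs 1 and 2 in all 9 genes, while the control siRNA + 5-ALA points of the runs lie close together in most.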

How the data were processed

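Biotin-labelled cRNA from total RNA was hybridized to arrays with 28869 probe sets. The deposited values are linear intensity from 21.0 to 23641, made with RMA in the oligo package, per the submitters' processing notes. The sources used here give no versions and no genome build. A further 12 sample columns and 8 group columns of the workbook could not be tied to samples and were left out. Signals were turned to log2 without a pseudocount (0) or further normalization. Of the probe sets, 19937 carry 1 symbol, of which 19309 were updated by Entrez number through RefSeq tables, 628 kept the file's name and 27 date-like symbols were restored. Genes were kept with log2 signal above 7.29, the median of all, on at least 3 of 12 arrays, using the probe set with the highest mean.

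All 12 arrays were fitted in limma 3.58.1 (R 4.3.3, data.table version 1.17.8), with a mean per group and the run as a block, leaving 6 residual degrees of freedom. P-values are two-sided, Benjamini-Hochberg adjusted over 12151 genes, and below 0.05 counts as past the test. The run comes from the sample numbers in the titles. After removal of group means, control siRNA plus 5-ALA and untreated arrays of the same run correlated at 0.266 to 0.514, and those of different runs at -0.40 to -0.099. The code was tested on simulated data. The comparison, the 30 gene lists and the rule for named genes were chosen with earlier results of these data known. That rule takes the heme genes, the 12 largest rises and falls with 1 sign in all runs (noncoding and provisional names left out), up to 3 genes per list, and the genes that depend most on Sample 9. Alternatives covered replicates left out, the block, the arrays fitted, the filter, scaling, variance, weights, probe sets and pseudocount. Results of some genes are not reported here.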

Additional observations from a re-analysis of the deposited data

How the results depend on the processing

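HMOX1 (log2 difference 1.57 to 1.79) and ALAS1 (-0.82 to -0.56) kept their direction and their call under all 20 alternatives. Of the 91 named genes past the test, 43 kept the call under all 20, 0 changed sign, and 11 of the 20 others passed somewhere, SLC16A6 and CHAC1 in Samples 1, 4, 5 and 8 with the sign reversed. The replicate block, with the run as the pairing, mattered for the counts: without it 291 genes were higher and 270 lower, and without both it and Sample 9, 194 higher and 230 lower. Fitting only the 6 arrays with the block gave 286 higher and 306 lower. Leaving out 1 array gave 295 to 496 higher and 268 to 493 lower, the lowest of each without control siRNA plus 5-ALA replicate 1 and replicate 3. Leaving out run 3 gave 440 higher, and median centring 384. Fitting only Samples 1, 4, 5 and 8, chosen after seeing the data, gave 955 higher and 844 lower, with 1 residual degree of freedom. Cyclic loess gave 643 higher and 707 lower. CXCL10 lost its call in 7 alternatives, among them the fit with no block (adjusted p = 0.054), as did ADAMTS15 (adjusted p = 0.098 with no block). The cause was not tested. Genes that changed sign had small or Sample 9-dependent differences. ALAD ranged from -0.0469 to 0.0804 with 1 array left out, and was -0.020 both without run 3 and in Samples 1, 4, 5 and 8, -0.032 with no block and no Sample 9, -0.0124 with cyclic loess and -0.0184 with median centring. UROS was -0.08 with no block and no Sample 9. With 1 array left out, CPOX ranged from -0.0897 to 0.0394, ABCG2 from -0.26 to 0.0852, GADD45A from -0.56 to 0.14, SLC16A6 from -0.26 to 0.88, CHAC1 from -0.21 to 0.96 and LACC1 from -0.0475 to 0.99. Without run 3, and likewise in Samples 1, 4, 5 and 8, SLC16A6 was -0.22, CHAC1 -0.20 and LACC1 -0.068. With no block and no Sample 9 they were -0.28, -0.17 and -0.060 in that order. Signal over background could not be judged without detection values, which limits genes near 7.29.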

Other observations

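Probe sets that carry no gene symbol or several stood outside the gene tests. Of 2409 above the filter, 14 were higher and 5 lower with control siRNA plus 5-ALA than with no treatment (limma, adjusted over these probe sets alone). Of the listed sensors and stress genes not described above, the largest member of the immediate early list without Sample 9 was NR4A2, an orphan nuclear receptor. It measured 8.08, 8.54 and 8.22 with control siRNA plus 5-ALA and 7.51, 7.65 and 8.50 with no treatment, a log2 difference of 0.39 (limma adjusted p = 0.15) with all arrays and 0.62 (adjusted p = 0.010) without Sample 9. TRAPPC6B, a vesicle tethering protein, and MTX3, a mitochondrial metaxin, also passed only without Sample 9, at -0.49 and -0.48.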
